A study of Mus musculus with 6 samples.

Results

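The genes described here are 58 transcription factors known mainly from organs and cell types other than the pancreas. They were chosen by name as developmental regulators that are classically known as targets of Polycomb Repressor complex 2 (PRC2). For each gene, the probe set with the highest mean signal was taken among those annotated to a single gene, which gave values for 57 of the 58 among 18194 genes measured. Pax2 was not analysed here. RNA came from whole pancreases at embryonic day 15.5 (e15.5) in the C57BL/6 strain and was hybridised to Affymetrix Mouse Genome 430 2.0 arrays, 1 per sample. There were 3 samples from pancreas-specific Jarid2 knockout embryos (Jarid2 Δpanc), in which Pdx1-Cre recombines a floxed Jarid2 allele, and 3 from wild-type embryos (Jarid2 WT). The titles number the embryos 1 to 3 in each genotype, with nothing further on litters or pooling, so that the p-values below measure only the spread between these samples. The values are MAS5 signals, linear and in array units, scaled so that the trimmed mean of each array is 150.

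The model sets limits on what the arrays can show. Pdx1-Cre acts in the pancreatic epithelium, and the study describes recombination as restricted to it and mosaic, so that the mesenchyme, mesothelium, vessels, nerves and blood cells in the same RNA were not targeted. In such bulk samples, fewer cells of a type and less RNA per cell cannot be told apart. The 3 Jarid2 probe sets gave 392, 398 and 355 in Jarid2 Δpanc and 335, 301 and 415 in Jarid2 WT for the brightest, 308, 320 and 306 in Jarid2 Δpanc and 298, 274 and 324 in Jarid2 WT for the next, and 103, 138 and 106 in Jarid2 Δpanc and 129, 123 and 93 in Jarid2 WT for the dimmest. None separated the genotypes. Their positions relative to the floxed exon were not examined, so that they do not check the deletion. The study itself measured the floxed exon by quantitative RT-PCR in e15.5 pancreases and reported that it was reduced in Jarid2 Δpanc.

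Samples stood apart in ways that touch some of the genes. Jarid2 WT replicate 3 had a summed signal of 13966 over 12 skeletal muscle markers, against 299 to 379 in the Jarid2 Δpanc samples and 256 and 302 in the other Jarid2 WT samples. Jarid2 Δpanc replicate 1 had a sum of 438 over 4 spleen anlage markers, against 190 and 194 in the other Jarid2 Δpanc samples and 208 to 214 in Jarid2 WT. The spleen anlage list shares genes with the regulators described here. Its brightest gene, Wt1, had 199 in Jarid2 Δpanc replicate 1 and is also on the mesothelium list. All 3 Jarid2 Δpanc samples and Jarid2 WT replicate 3 expressed Xist, and Jarid2 WT replicates 1 and 2 expressed Y-linked genes instead. Sex and genotype are therefore partly confounded. The 9 pancreas epithelium markers measured all reached 64, with sums of 24073 to 29050 in Jarid2 Δpanc and 26798 to 28761 in Jarid2 WT.

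PRC2 places trimethylation on lysine 27 of histone H3 (H3K27me3), a mark of repressed chromatin, and Jarid2 is an accessory subunit that helps to bring the complex to its targets. In embryonic stem cells and in most differentiated tissues, the genes that carry the broadest H3K27me3 encode homeobox, T-box, paired box and Sox factors that build other organs, and their promoters are usually rich in CpG. H3K27me3 was not measured in these samples, so whether PRC2 occupies each gene in e15.5 pancreas is not known from them.

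Promoter sequence is shown for 5 of the genes to set side by side the range of CpG content and of signal. RefSeq windows from 250 bases before to 50 after the gene start (GRCm38.p6) were found for 39 of the 57 genes. Only the first window listed for a gene was used, and any other start was not examined. Each window is printed 5′ to 3′ on the strand of the gene, and capitals mark the CG dinucleotides. Barx1 (chr13:48662786-48663085, plus strand) holds 50 CG and was above a signal of 64 on all arrays, whereas Lhx2 (chr2:38339031-38339330, plus strand) holds 34 and was not seen above 4 on any array. Nkx2-3 (chr19:43612075-43612374, plus strand), also above 64 on all arrays, and Tbx18 (chr9:87731211-87731510, minus strand), a dim gene whose genotypes did not overlap, hold 15 each. Lhx9 (chr1:138842395-138842694, minus strand), also dim and without overlap, holds 6.
Barx1: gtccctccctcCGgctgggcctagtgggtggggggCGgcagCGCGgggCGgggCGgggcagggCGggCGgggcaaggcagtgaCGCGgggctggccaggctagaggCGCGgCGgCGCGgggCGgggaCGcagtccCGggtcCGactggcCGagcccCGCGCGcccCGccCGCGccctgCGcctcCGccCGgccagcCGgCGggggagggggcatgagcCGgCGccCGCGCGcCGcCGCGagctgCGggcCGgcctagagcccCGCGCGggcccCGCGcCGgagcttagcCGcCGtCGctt
Lhx2: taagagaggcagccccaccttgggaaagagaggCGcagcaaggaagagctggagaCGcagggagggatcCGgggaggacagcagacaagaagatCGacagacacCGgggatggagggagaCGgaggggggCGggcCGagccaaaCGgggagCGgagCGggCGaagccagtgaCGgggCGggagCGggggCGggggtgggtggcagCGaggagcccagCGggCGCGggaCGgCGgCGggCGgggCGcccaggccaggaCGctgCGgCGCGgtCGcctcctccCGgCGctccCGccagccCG
Nkx2-3: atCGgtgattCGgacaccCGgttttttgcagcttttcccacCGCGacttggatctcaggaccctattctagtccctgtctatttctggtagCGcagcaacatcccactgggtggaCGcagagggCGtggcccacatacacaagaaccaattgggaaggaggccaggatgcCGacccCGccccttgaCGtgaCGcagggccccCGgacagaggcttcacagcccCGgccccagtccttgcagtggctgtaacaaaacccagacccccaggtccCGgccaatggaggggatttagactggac
Tbx18: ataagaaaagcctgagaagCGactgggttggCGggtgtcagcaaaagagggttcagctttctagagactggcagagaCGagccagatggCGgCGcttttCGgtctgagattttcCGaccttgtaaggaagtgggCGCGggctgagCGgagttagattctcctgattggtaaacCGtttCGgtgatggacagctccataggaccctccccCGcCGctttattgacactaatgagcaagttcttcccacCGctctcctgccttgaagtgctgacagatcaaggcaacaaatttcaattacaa
Lhx9: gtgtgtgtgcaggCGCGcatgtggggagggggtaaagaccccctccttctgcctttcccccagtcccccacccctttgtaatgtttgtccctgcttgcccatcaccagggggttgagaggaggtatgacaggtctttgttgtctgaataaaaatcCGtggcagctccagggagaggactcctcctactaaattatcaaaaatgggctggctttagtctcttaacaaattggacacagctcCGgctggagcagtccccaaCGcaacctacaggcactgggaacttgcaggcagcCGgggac

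The windows of the 39 regulators held a median of 22 CG, with a range of 4 to 50, against a median of 17 over the 14453 measured genes with a window. The letters CG occur at least once in 100% of the 39 windows and in 98.1% of all windows. A window was counted as CpG-rich when its ratio of observed to expected CG was over 0.6 and its GC share over 50%. By this count 25 of 39 regulators (64.1%) were CpG-rich, against 53.9% of all genes with a window. The share was 62.9% of the 35 regulators that stayed under a signal of 64, a mark of a clear level used below, and 3 of the 4 that reached it, so that CpG-rich windows were found on both sides of the mark.

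**Figure D1:**
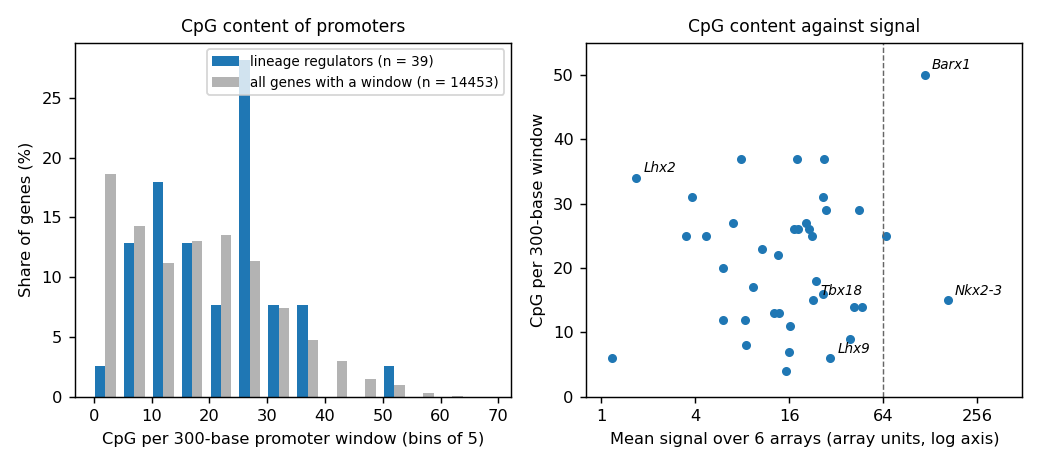
CG dinucleotides per 300-base promoter window. Left, the share of genes (%) in bins of 5 CG for the 39 lineage regulators with a window and for all 14453 measured genes with one. Right, CG per window against mean signal over the 6 arrays for the 39 regulators (log axis, dashed line at 64), in which Lhx2 and Barx1 hold 34 and 50 CG on opposite sides of 64.

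The main result was the low level of the set. No detection calls were at hand, so a signal of 64 was used as a mark of a clear level and 16 as the floor below which values were not told apart. Of the 57 regulators, 49 stayed under 64 on all 6 arrays (86.0%), against 7353 of 18194 genes (40.4%). At or under 16 on all arrays were 10 of the 57 (17.5%, against 8.76% of all genes). The 49 had no signal above 63 in Jarid2 Δpanc or above 59 in Jarid2 WT. The 10 regulators at the floor, which are Tbx4, Otx1, Dlx1, En2, Six6, Olig2, Irx4, Gsc, Lhx2 and Otx2, had no signal above 13 in Jarid2 Δpanc or above 15 in Jarid2 WT.

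The number of dim genes was close between genotypes. On single arrays, 52, 52 and 52 of the 57 were under 64 in Jarid2 Δpanc and 52, 53 and 52 in Jarid2 WT. The summed signal of the 57 was 1454 to 1558 in Jarid2 Δpanc and 1431 to 1611 in Jarid2 WT, and the ranges overlap. Closest to the mark were Nkx2-5, with a highest signal of 63, and Irx3, with a highest signal of 65. Probe sets differ in how well they bind their transcript, so the signals do not rank the genes by amount of RNA. The other 36 probe sets of these genes had lower means by the choice of the brightest, so that they are no separate check of the low level. Of these, 35 were under 64 on all arrays, and the highest signal was 80, for Nkx2-3.

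**Figure D2:**
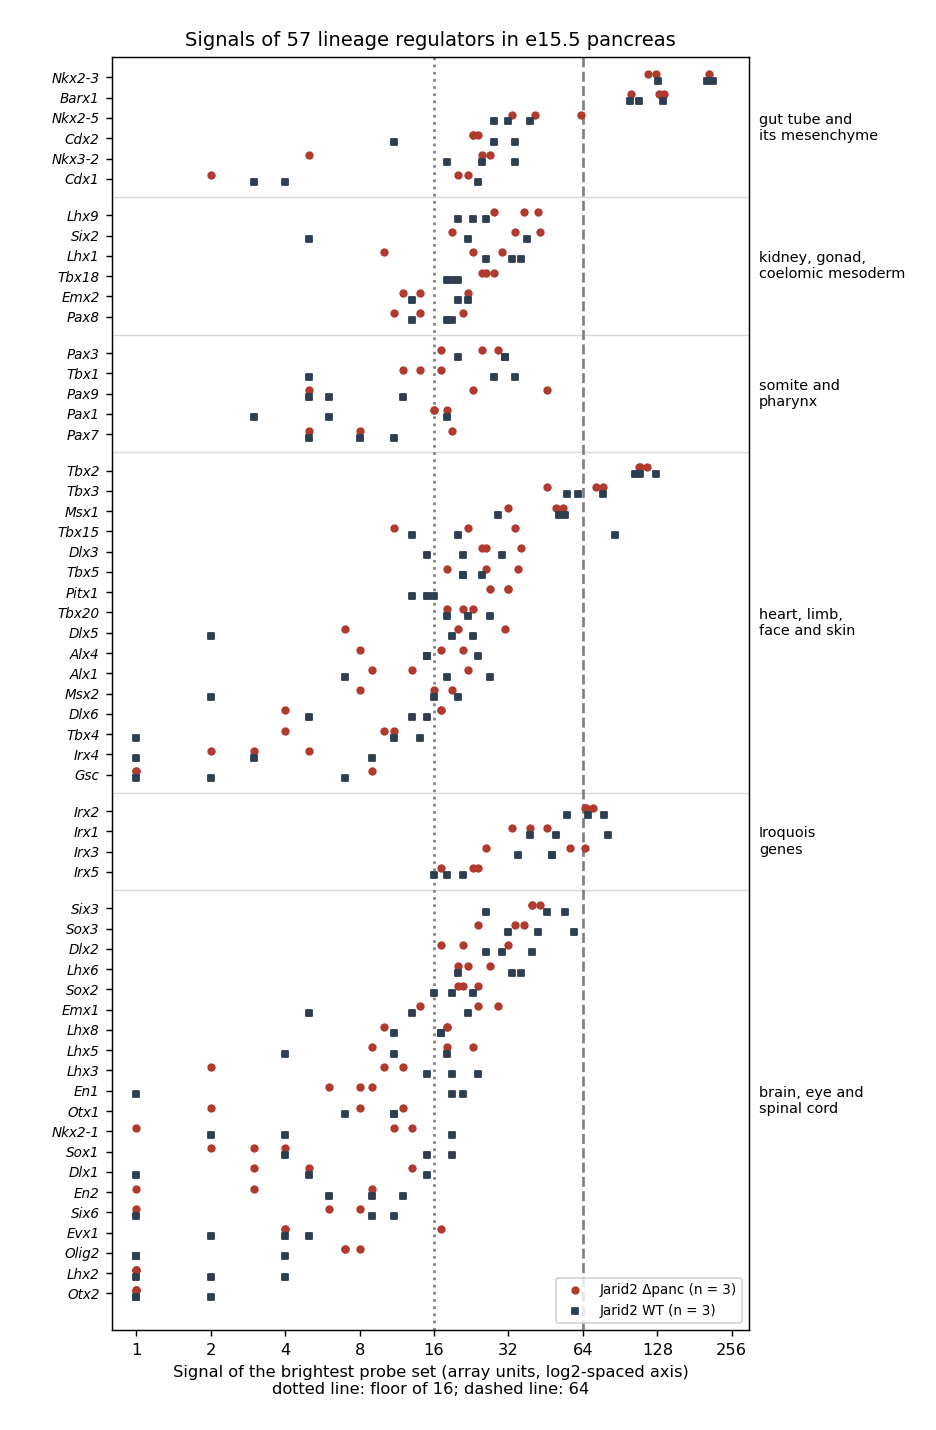
Signal of the brightest probe set of 57 lineage regulators in each sample (log axis, array units), with 3 Jarid2 Δpanc samples as circles above 3 Jarid2 WT samples as squares in each row, grouped by the organs the genes are known for. Dotted and dashed lines mark 16 and 64, and 49 of the genes lie left of 64 in all 6 samples.

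Across the set, no gene passed an adjusted p of 0.05 in either direction in the limma fit with Benjamini-Hochberg adjustment over all genes, and neither did any of the 18194 genes (0%). At an unadjusted p under 0.05, 3 of the 57 were higher and 0 lower in Jarid2 Δpanc, where 4.35% of all genes were higher and 4.44% lower. The values of the genotypes did not overlap for the same 3 genes, all higher in Jarid2 Δpanc (5.26%), and for 0 lower, against 5.71% of all genes higher and 5.66% lower. All 3 were among the 49 regulators under 64 on all arrays (6.12%), where 2.98% of the 7353 genes under 64 were higher without overlap and 2.09% lower. The count is thus near the share over all genes and above that over genes of similar dimness, and rests on 3 genes. The median log2 fold change was 0.00 in the set and 0.00 over all genes. In the set 23 genes were negative, 23 positive and 11 equal after the floor, and 53 of 57 lay within 0.5 on the log2 scale (93.0%, against 94.6% of all genes). Leaving out Jarid2 WT replicate 3 gave 0 regulators past the threshold, with 4 higher and 4 lower without overlap (7.02% each, against 10.8% of all genes higher and 10.5% lower). Leaving out Jarid2 Δpanc replicate 1 also gave 0, with 7 higher and 3 lower without overlap (12.3% and 5.26%, against 9.94% and 8.58% of all genes). Fewer samples make it easier not to overlap.

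**Figure D3:**
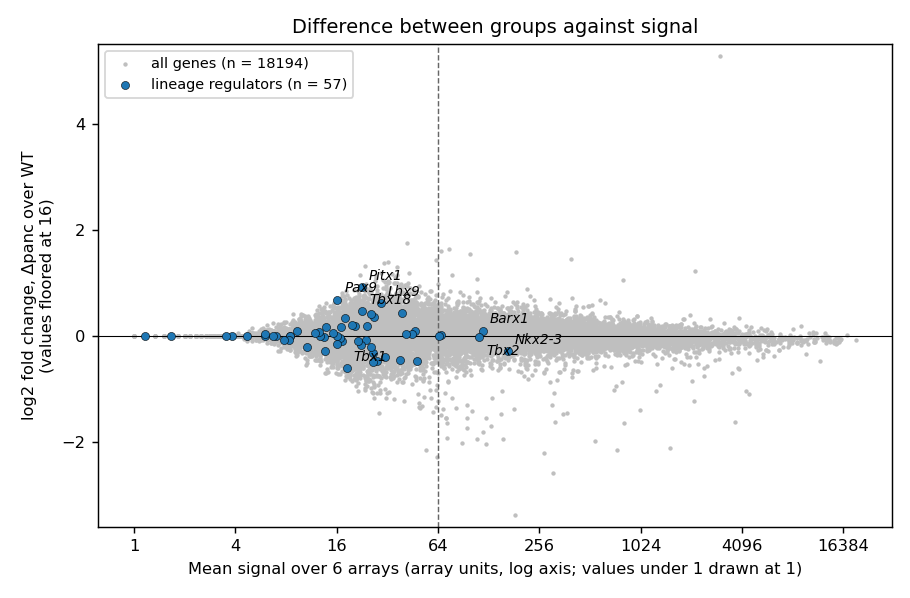
log2 fold change, Jarid2 Δpanc over Jarid2 WT on values floored at 16, against mean signal over 6 arrays (log axis) for 18194 genes in grey and the 57 lineage regulators in blue. The dashed line marks 64, and the regulators lie between -0.60 for Tbx1 and 0.92 for Pitx1.

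The precision differs with signal. The median SD between replicates was 0.374 on the log2 scale for genes with a mean of 16 to 32, which holds 24 of the 57, and 0.335 for 32 to 64, which holds 6. It was 0.224 in the next bin, which starts at 64 and holds 4 of the 57, and 0.161 in the one after, which holds 1. For the 22 under 16, the floor sets the spread and a small SE carries little information. The 5 brightest regulators had a median SE of 0.18.

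Among the genes of the gut tube and its mesenchyme, Nkx2-3 and Barx1 gave a clear signal on every array. Nkx2-3, a homeobox factor of gut and spleen mesenchyme, had 207, 117 and 126 in Jarid2 Δpanc and 129, 203 and 214 in Jarid2 WT. The genotypes overlapped, with 1 high sample in Jarid2 Δpanc and 1 low sample in Jarid2 WT. The log2 fold change was -0.29 with an SE of 0.32 (95% interval -1.15 to 0.56, adjusted p = 0.847 in limma). A second Nkx2-3 probe set had 80, 45 and 58 in Jarid2 Δpanc and 44, 37 and 52 in Jarid2 WT, with a log2 fold change of 0.43, so that the probe sets disagree in sign. The third gave -0.34.

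Barx1, which marks the mesenchyme of the stomach, had 136, 130 and 100 in Jarid2 Δpanc and 135, 108 and 99 in Jarid2 WT. Its genotypes overlapped almost fully, at a log2 fold change of 0.10 with an SE of 0.18 (95% interval -0.38 to 0.57, adjusted p = 0.954). The stomach marker sums, of which Barx1 is part, were 392 to 528 in Jarid2 Δpanc and 398 to 474 in Jarid2 WT. Cdx1 and Cdx2, homeobox factors of the intestinal epithelium, stayed low. Cdx2 had 23, 24 and 23 in Jarid2 Δpanc and 11, 34 and 28 in Jarid2 WT, and Cdx1 did not exceed 24 in any sample.

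Nkx2-5 and Nkx3-2 are homeobox factors of the spleen and stomach mesenchyme, and Nkx2-5 also of the heart. Nkx2-5 had 63, 33 and 41 in Jarid2 Δpanc and 39, 28 and 32 in Jarid2 WT, a log2 fold change of 0.43 with an SE of 0.29 (adjusted p = 0.795). Its highest value was in Jarid2 Δpanc replicate 1, the sample in which Tlx1, a spleen anlage marker, had 151. Tlx1 was 44 and 34 in the other Jarid2 Δpanc samples and 45, 42 and 55 in Jarid2 WT. Nkx3-2 had 25, 5 and 27 in Jarid2 Δpanc and 18, 34 and 25 in Jarid2 WT and did not share the high value of that sample. Nkx2-5 and Nkx3-2 are themselves counted in the spleen anlage sum given above, so that this sum is no separate check of them. The part of the spleen anlage in the Nkx2-5 and Nkx3-2 values was not tested.

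**Figure D4:**
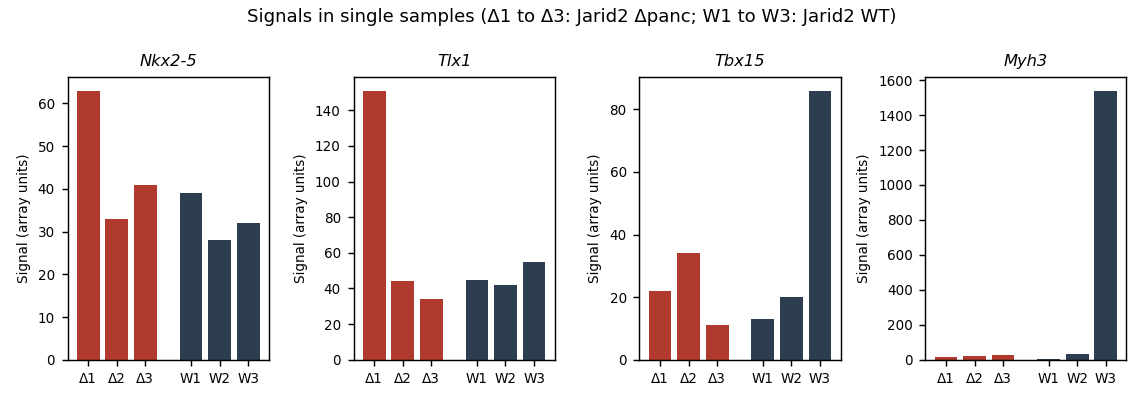
Signals (array units, bars from 0) of Nkx2-5 and the spleen anlage marker Tlx1, and of Tbx15 and the muscle marker Myh3, in the 3 Jarid2 Δpanc and 3 Jarid2 WT samples. Nkx2-5 and Tlx1 were highest in Jarid2 Δpanc replicate 1, and Tbx15 and Myh3 in Jarid2 WT replicate 3.

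Of the Iroquois homeobox genes, known among other tissues from the nervous system, heart and kidney, Irx2 stood at the mark of 64 and was above it on 5 of 6 arrays. It had 70, 66 and 65 in Jarid2 Δpanc and 78, 67 and 55 in Jarid2 WT, a log2 fold change of 0.02 with an SE of 0.14 (95% interval -0.35 to 0.39, adjusted p = 1). Without Jarid2 WT replicate 3 it was -0.11. Irx1, its neighbour in the genome, had 46, 33 and 39 in Jarid2 Δpanc and 81, 50 and 39 in Jarid2 WT, with 1 Jarid2 WT sample above the mark and a log2 fold change of -0.47 (SE 0.32). Irx3 had 26, 65 and 57 in Jarid2 Δpanc and 35, 48 and 48 in Jarid2 WT, and Irx5 did not exceed 24 in either genotype. Irx4, a factor of the heart ventricle, stayed at the floor. Which cells of the pancreas gave the Iroquois signals was not tested.

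Among the T-box genes and other factors of heart, limb, face and skin, Tbx2 and Tbx3 gave signal near or above the mark. Both act as repressors in limb, heart and mammary development. Tbx2 had 109, 116 and 108 in Jarid2 Δpanc and 109, 104 and 127 in Jarid2 WT, at -0.03 with an SE of 0.09 (95% interval -0.26 to 0.21, adjusted p = 1), the smallest SE of the 5 brightest genes. Tbx3 had 72, 46 and 77 in Jarid2 Δpanc and 61, 55 and 77 in Jarid2 WT, at -0.01 with an SE of 0.26 (adjusted p = 1). Neither separated the genotypes. Without Jarid2 WT replicate 3 the fold changes were 0.059 for Tbx2 and 0.13 for Tbx3.

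Pitx1, which specifies the hindlimb and the pituitary, had the lowest p of the set. It had 32, 27 and 32 in Jarid2 Δpanc and 13, 16 and 15 in Jarid2 WT, so that the genotypes did not overlap and all Jarid2 WT values were at or under the floor. The log2 fold change was 0.92 with an SE of 0.08 (adjusted p = 0.218 in limma), an estimate of 1.89-fold with Jarid2 WT counted as 16. The difference did not pass the threshold, and the floor on the Jarid2 WT values shrinks the spread behind its SE. A second Pitx1 probe set had 16, 5 and 2 in Jarid2 Δpanc and 14, 3 and 9 in Jarid2 WT and was at the floor throughout. Without Jarid2 Δpanc replicate 2, Pitx1 had an adjusted p of 0.0134 at a log2 fold change of 1.00, but the values left were 32 and 32 in Jarid2 Δpanc and 16 after the floor in Jarid2 WT, with no spread within either genotype, so that this p says nothing on agreement between replicates.

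Tbx15, a factor of skin and skeletal muscle, had 22, 34 and 11 in Jarid2 Δpanc and 13, 20 and 86 in Jarid2 WT. The value of 86 was in Jarid2 WT replicate 3, where the embryonic muscle myosin Myh3 had 1540, against 16, 20 and 25 in Jarid2 Δpanc and 4 and 32 in the other Jarid2 WT samples. The part of muscle in the Tbx15 value was not tested. Msx1, a homeobox factor of limb and face mesenchyme, had 50, 32 and 53 in Jarid2 Δpanc and 54, 29 and 51 in Jarid2 WT. Dlx6, a distal-less factor of the jaw, was at the floor on most arrays, with 17, 17 and 4 in Jarid2 Δpanc and 13, 15 and 5 in Jarid2 WT. Dlx3, of skin and placenta, had 26, 25 and 36 in Jarid2 Δpanc and 15, 21 and 30 in Jarid2 WT, a log2 fold change of 0.41. The remaining genes of this group did not exceed 35 in any sample, which holds for Dlx5 of the jaw, Tbx4 of the hindlimb, Tbx5 of forelimb and heart, Tbx20 of the heart, Alx1 and Alx4 of the face and skull, Msx2 of skull and teeth, and Gsc of the early organizer and face.

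Genes of kidney, gonad and coelomic mesoderm held the other pair without overlap. Tbx18, a T-box factor of the coelomic and urogenital mesenchyme, had 25, 28 and 26 in Jarid2 Δpanc and 20, 19 and 18 in Jarid2 WT, at 0.47 with an SE of 0.06 (adjusted p = 0.218). Lhx9, a LIM homeobox factor of the gonad, had 37, 28 and 42 in Jarid2 Δpanc and 26, 23 and 20 in Jarid2 WT, at 0.62 with an SE of 0.19 (adjusted p = 0.475). Neither passed the threshold. The other Tbx18 probe set was at the floor throughout, and the other 3 Lhx9 probe sets overlapped between genotypes, the next brightest with 31, 24 and 18 in Jarid2 Δpanc and 24, 12 and 7 in Jarid2 WT.

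**Figure D5:**
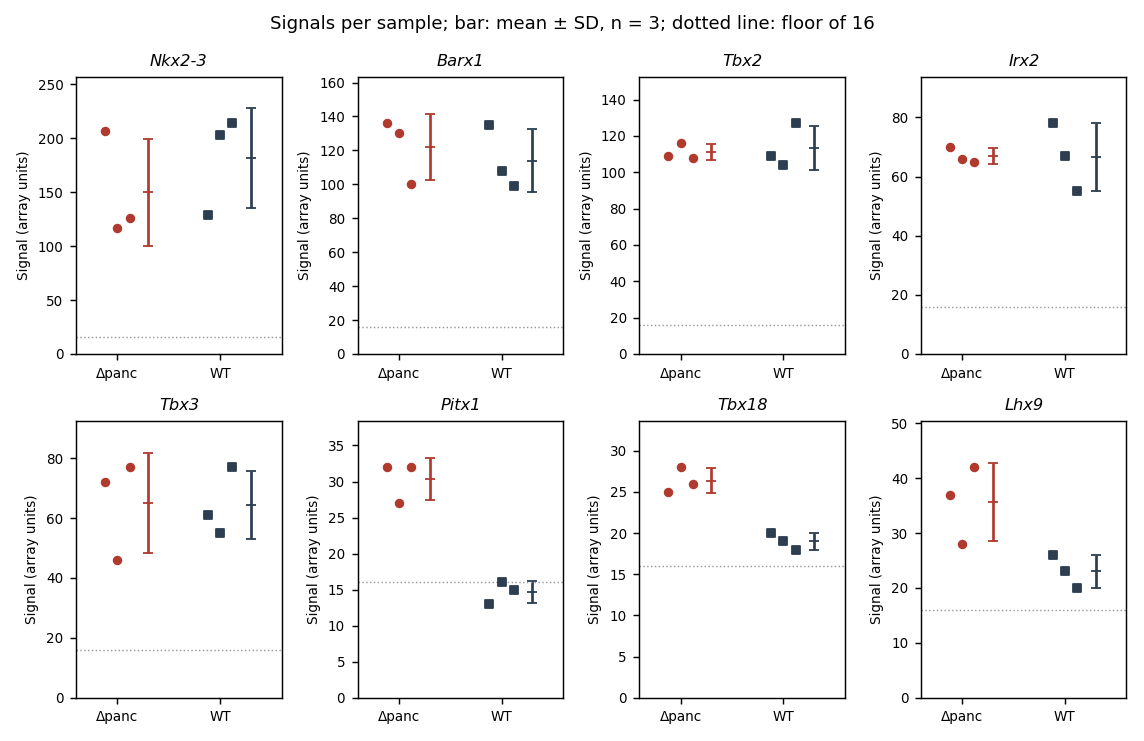
Signals (array units) of the 5 brightest lineage regulators and of the 3 whose genotypes did not overlap, with each of 3 samples as a point, Jarid2 Δpanc left of Jarid2 WT, the mean and SD beside them and the floor of 16 as a dotted line. Pitx1, Tbx18 and Lhx9 separate the genotypes at signals of 42 or less, and the 5 brighter genes overlap.

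Markers of the mesenchyme and mesothelium around the pancreas were examined beside these genes, because Tbx18 and Lhx9 are known from such tissue. All 12 mesenchyme markers had positive log2 fold changes, from 0.02 to 0.70 with a median of 0.13. Without overlap, 1 of 12 was higher and 0 lower in Jarid2 Δpanc, where 5.71% of all genes were higher and 5.66% lower. Their sums were 36175 to 40382 in Jarid2 Δpanc and 31685 to 39691 in Jarid2 WT. The marker without overlap was Tcf21, a mesenchymal factor, with 550, 297 and 269 in Jarid2 Δpanc and 191, 258 and 207 in Jarid2 WT. The 7 mesothelium markers had a median of 0.26, with 5 positive and 2 negative. That median is the value of Wt1, which had 199, 112 and 88 in Jarid2 Δpanc and 106, 110 and 98 in Jarid2 WT. The mesothelium sums were 1317, 1154 and 949 in Jarid2 Δpanc replicates 1 to 3 and 989 to 1048 in Jarid2 WT. Without overlap, 1 of 7 was higher and 0 lower. None of these markers passed the threshold, and their part in the Tbx18 and Lhx9 values was not tested.

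In the same group, Lhx1, which builds the nephric duct, had 30, 23 and 10 in Jarid2 Δpanc and 33, 26 and 36 in Jarid2 WT, at -0.49 with an SE of 0.28 (adjusted p = 0.732). Six2, of nephron progenitors, had 34, 43 and 19 in Jarid2 Δpanc and 38, 22 and 5 in Jarid2 WT. Both overlapped. Emx2 and Pax8, of the urogenital ridge and nephric lineage, did not exceed 22 in any sample. The 8 kidney and gonad markers measured had sums of 275 to 294 in Jarid2 Δpanc and 281 to 314 in Jarid2 WT.

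The somite and pharynx genes were all under 64. Tbx1, of the pharyngeal arches, had the most negative value of the set, with 14, 17 and 12 in Jarid2 Δpanc and 5, 34 and 28 in Jarid2 WT, at -0.60 with an SE of 0.31 (adjusted p = 0.691). The genotypes overlapped through Jarid2 WT replicate 1. Pax9, of the pharyngeal pouches and sclerotome, had 23, 46 and 5 in Jarid2 Δpanc and 12, 6 and 5 in Jarid2 WT, at 0.68 with an SE of 0.42 (adjusted p = 0.762), and its high value came from Jarid2 Δpanc replicate 2. Pax1, Pax3 and Pax7, of sclerotome and muscle precursors, did not exceed 31 in any sample. In Jarid2 WT replicate 3, the sample with muscle RNA, Pax3 had 31 and Pax7 had 5.

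The 20 genes of brain, eye and spinal cord had signals of 1 to 43 in Jarid2 Δpanc and 1 to 59 in Jarid2 WT, and accounted for 7 of the 10 genes that never left the floor. Six3, of forebrain and eye, had 40, 40 and 43 in Jarid2 Δpanc and 46, 26 and 54 in Jarid2 WT. Sox3, of neural progenitors, had 34, 24 and 37 in Jarid2 Δpanc and 59, 42 and 32 in Jarid2 WT. En1, of the midbrain and hindbrain border, had 8, 9 and 6 in Jarid2 Δpanc and 21, 1 and 19 in Jarid2 WT, at -0.21 with an SE of 0.11 (adjusted p = 0.687). Lhx3, of motor neurons and pituitary, had 10, 2 and 12 in Jarid2 Δpanc and 19, 24 and 15 in Jarid2 WT, at -0.28 with an SE of 0.16 (adjusted p = 0.736), and all Jarid2 Δpanc values and 1 Jarid2 WT value were under the floor.

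Otx2, a forebrain factor, did not exceed 2 and Lhx2, of forebrain and eye, did not exceed 4 in any sample. Olig2, of motor neuron and oligodendrocyte precursors, had 7, 7 and 8 in Jarid2 Δpanc and 1, 1 and 4 in Jarid2 WT, a difference that lies wholly under the floor. Sox2, of neural and foregut progenitors, had 24, 20 and 21 in Jarid2 Δpanc and 23, 16 and 19 in Jarid2 WT. Dlx2, of forebrain interneurons, had 32, 17 and 21 in Jarid2 Δpanc and 30, 26 and 40 in Jarid2 WT, the most negative of the 20 genes at -0.48. Emx1, of the cerebral cortex, was the most positive at 0.33, with 14, 24 and 29 in Jarid2 Δpanc and 5, 22 and 13 in Jarid2 WT. Both overlapped.

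Lhx6, of cortical interneurons, had 22, 27 and 20 in Jarid2 Δpanc and 36, 33 and 20 in Jarid2 WT. Lhx5 and Lhx8 of the forebrain, Nkx2-1 of forebrain, lung and thyroid, Sox1 of neural progenitors and Evx1 of spinal cord interneurons did not exceed 23 in any sample. The log2 fold changes of the 20 genes ran between -0.48 and 0.33, and the smallest adjusted p was 0.687. Neuron and glia markers were present in the tissue, with sums of 1083 to 1369 in Jarid2 Δpanc and 974 to 1321 in Jarid2 WT over 10 genes.

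The families differed in how many members stayed dim. All 5 paired box genes, all 7 LIM homeobox genes, all 5 distal-less genes, all 3 Sox genes and Six2, Six3 and Six6 stayed under 64 on every array. Among the 8 T-box genes 5 did, and among the 5 Iroquois genes 2 did. The median log2 fold change was 0.00 in the paired box and LIM families, -0.02 in the T-box family and 0.02 in the Iroquois family.

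Several of the regulators lie close together in the genome. In RefSeq GRCm38.p6, 11 pairs lie within 1 Mb of each other. In 1 pair, Irx1 and Irx2, both genes reached 64 on some array, in 5 pairs only 1 did, and in 5 neither did. Tbx2 was above the mark on all arrays while its neighbour Tbx4 was at the floor on all arrays. None of the 11 pairs held Pitx1, Tbx18 or Lhx9.

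For comparison, 109 other developmental regulators were listed, of which 94 were measured. Of these 75 stayed under 64 on all arrays (79.8%) and 14 at the floor, and 0 passed the threshold. Without overlap, 7 of the 94 were higher and 3 lower in Jarid2 Δpanc, where 5.71% of all genes were higher and 5.66% lower. All 7 higher genes were under 64 on all arrays, as were Foxc1 and Atoh1 of the lower genes, but not Gfi1. Among the 7353 genes under 64, 2.98% were higher without overlap and 2.09% lower. The median log2 fold change was 0.00. The lowest p values belonged to Nkx6-2, Foxd2, Foxa1 and Hand1. Nkx6-2, a homeobox factor of the neural tube that is also expressed in the pancreas epithelium, had 46, 46 and 30 in Jarid2 Δpanc and 8, 2 and 10 in Jarid2 WT, at 1.32 with an SE of 0.19 (adjusted p = 0.246). Foxa1, a forkhead factor of endoderm and hence of the pancreas too, had 59, 51 and 34 in Jarid2 Δpanc and 19, 19 and 12 in Jarid2 WT, at 1.38 with an SE of 0.24 (adjusted p = 0.266). Foxd2, of kidney and somite mesenchyme, had 25, 25 and 28 in Jarid2 Δpanc and 19, 11 and 8 in Jarid2 WT. Hand1, of heart and trophoblast, had 36, 36 and 23 in Jarid2 Δpanc and 10, 18 and 18 in Jarid2 WT.

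The brightest of these other regulators were Hand2, Prrx1, Gfi1 and Sox18. Hand2, of splanchnic mesenchyme, had 591, 774 and 677 in Jarid2 Δpanc and 634, 545 and 610 in Jarid2 WT. Prrx1, of limb and other mesenchyme, had 304, 294 and 306 in Jarid2 Δpanc and 317, 282 and 292 in Jarid2 WT, and Sox18, of endothelium, had 170, 155 and 163 in Jarid2 Δpanc and 185, 165 and 154 in Jarid2 WT. Gfi1, a zinc finger repressor known from blood cells among other tissues, alone of the 4 brightest had no overlap. It had 151, 166 and 141 in Jarid2 Δpanc and 223, 226 and 177 in Jarid2 WT, at -0.45 with an SE of 0.12 (adjusted p = 0.424). Which cells gave the Gfi1 signal was not tested.

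The subunits and accessory factors of PRC2 itself were mostly above the mark. Of 11 listed genes, 9 reached 64 on all arrays. Phf1, an accessory subunit, had 62, 63 and 45 in Jarid2 Δpanc and 78, 38 and 55 in Jarid2 WT, and Phf19, another, had 33, 52 and 54 in Jarid2 Δpanc and 66, 45 and 44 in Jarid2 WT. The 11 genes had sums of 14959 to 15433 in Jarid2 Δpanc and 14498 to 14758 in Jarid2 WT, and 0 passed the threshold. Rbbp7, with a mean of 6858.5, and Rbbp4, with 3589.17, made up most of each sum. Without overlap, 2 of the 11 were higher and 0 lower in Jarid2 Δpanc, where 5.71% of all genes were higher and 5.66% lower. The values did not overlap for Eed, a core subunit that binds the H3K27me3 mark, with 837, 826 and 851 in Jarid2 Δpanc and 784, 788 and 752 in Jarid2 WT (log2 fold change 0.11). They did not overlap either for Mtf2, an accessory subunit that binds CpG-rich DNA, with 493, 485 and 523 in Jarid2 Δpanc and 432, 355 and 388 in Jarid2 WT (log2 fold change 0.36, adjusted p = 0.366). These are the brightest of 2 probe sets for Eed and of 6 for Mtf2, and the others are not given here.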

How the data were processed

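Whole e15.5 pancreases were profiled on 6 arrays from 50 ng of total RNA through 2 cycles of cDNA synthesis. As deposited, each of 45101 probe sets has an intensity per array from MAS5, which the submitters' notes name without a version. These linear whole numbers average 150 per array once the highest and lowest 2% are set aside. The study itself used RMA before limma, and RMA values were not used here. The description label names islets in glucose, whereas title, tissue and age name embryonic pancreas, which was followed. All sample columns were used.

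Of 35890 annotated probe sets, 34958 carried 1 gene symbol. The 932 with several symbols and 9211 without a name were left out. Values were floored at 16 and put on the log2 scale, and the 18194 genes were fitted with limma 3.58.1 in R 4.3.3 (lmFit, eBayes, 4 residual degrees of freedom), tested on simulated data, with p adjusted by Benjamini-Hochberg and called under 0.05. The prior degrees of freedom were 0.604, with 1594 genes at the floor on all arrays. The number of arrays limits the precision. The regulators, marker lists and comparisons were chosen with earlier results of these data known. Values were given in full for regulators with a mean of at least 64 and for the 8 of lowest p. Other genes printed were chosen after their values were seen. From the other regulators, the 4 brightest and the 4 of lowest p were named. Alternatives covered samples, replicate block, normalization, floor, filter, probe set and variance model.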

Additional observations from a re-analysis of the deposited data

How the results depend on the processing

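Over the alternatives other than the Xist-high samples, 173 fold changes of single regulators kept their direction and side of the threshold, 16 became exactly 0, 10 turned sign and 1 passed the threshold. Many of the 173 could not change direction. The replicate block, the variance model and the filters leave a fold change as it is. So do the probe set settings for genes with 1 probe set. Those at 0 were 5 at a floor of 32, 8 at a floor of 64 and 3 with the second brightest probe set, among them Pitx1 and Tbx18 in each and Lhx9 at a floor of 64. The count of 49 regulators under 64 was 51 with the mean of all probe sets, and 33 stayed under 32. Leaving out 1 sample in turn gave 0 to 8 genes past the threshold lower and 0 to 4 higher among all genes, 0 to 1 regulators past the threshold higher (Pitx1, without Jarid2 Δpanc replicate 2, where no spread was left) and 0 lower, and 3 to 7 regulators higher and 0 to 4 lower without overlap. Over all genes, 9.56% to 10.8% were higher and 8.58% to 10.5% lower without overlap in these settings. Pitx1, Tbx18 and Lhx9 were shared in each of them, which leaving out a sample cannot change, and fewer samples by construction overlap less. Without Jarid2 WT replicate 3, the sample with muscle RNA, 3 genes were lower and 2 higher. Quantile normalization gave 2 genes lower and 1 higher. Leaving out genes with a mean under 64 gave 3 genes lower and, with 5 regulators left, 0 without overlap higher. Floors of 32 and 64 and the second brightest probe set each gave 0 regulators without overlap higher, and a floor of 1 or the mean of all probe sets gave 1 lower.

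With the replicate number as a block in limma, 0 genes and 0 regulators passed the threshold, and Pitx1 had an adjusted p of 0.449. The count of 3 regulators without overlap does not use the block and could not change. The numbers did not pair the samples, with correlations of -0.02, -0.01 and -0.02 between deviations. Among Xist-high samples only, an alternative chosen after seeing the data with 1 Jarid2 WT sample (the one with muscle RNA) assumed to vary like the others, 244 genes were lower and 13 higher, and 9 regulators were higher and 14 lower without overlap (15.8% and 24.6%, against 20.1% and 22.2% of all genes). Some fold changes turned sign. Irx2 was -0.01 without Jarid2 Δpanc replicate 1, -0.11 without Jarid2 WT replicate 3, -0.038 after quantile normalization and -0.052 at a floor of 64, with -0.11 to 0.14 over all samples left out. Tbx3 was 0.23 without Jarid2 Δpanc replicate 2, 0.13 without Jarid2 WT replicate 3 and 0.057 at a floor of 64, with -0.15 to 0.23 over all samples left out. Tbx2 was 0.059 without Jarid2 WT replicate 3, with -0.085 to 0.059 over all samples left out, En1 was 0.038 at a floor of 1, against -0.21, and Nkx2-3 was 0.43 with its second probe set, against -0.29. The cause was not tested. Signals near the floor limit what could be seen for 49 of the 57 regulators.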
